A study of Mus musculus with 6 samples.

Results

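Of the genes measured in mouse bladder mucosa, 10 that encode transcription factors were grouped as markers of position or lineage in connective tissue cells. Other such factors were measured too, and Hoxa9, Tcf4 and Nr1h3 were not highest in these cells on average. The 10 genes were taken by name and matched by Ensembl identifier. All 10 were listed in each of the 6 count tables, out of 14338 genes listed in all tables and used here. They comprise the posterior Hox genes Hoxa9, Hoxa10 and Hoxa13, the homeobox genes Pitx1 and Isl1, the basic helix-loop-helix (bHLH) genes Twist1, Tcf21 and Tcf4, the forkhead gene Foxf1 and the nuclear receptor gene Nr1h3.

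Droplet-based single-cell RNA sequencing was carried out on the mucosal layer of bladders from wild type C57BL/6 mice labelled as 8 weeks old. Healthy mice, mice 48 hours after cyclophosphamide (CPP, acute) and mice given 4 rounds of CPP over 11 days (chronic) contributed 2 libraries each. CPP is a chemotherapeutic drug that damages the lining of the bladder. The mucosa was peeled from the bladder wall and digested with collagenase IV, and the labels do not say which mice entered which library. Replicates are therefore libraries, and p-values measure the spread between libraries, which may be partly technical.

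Hox genes lie in clusters in which the order of the genes follows the order of their expression along the body axis, and fibroblasts of adult organs keep a Hox pattern typical of their site. Hox paralogs with high numbers mark the hind part of the body, where the bladder forms, and Hoxa13 is required for normal development of the lower urinary and genital tract. Pitx1 specifies hindlimb identity, Isl1 is a LIM homeobox factor of limb, heart and genital precursors, and Foxf1 is a target of Hedgehog signalling in the mesenchyme around epithelial tubes. Twist1 and Tcf21 are bHLH factors of mesenchymal precursors that pair with broadly expressed E proteins, of which Tcf4 is one. Nr1h3 encodes the liver X receptor alpha (LXR alpha), a sterol sensor that controls cholesterol export. Tcf4 here is the E protein and not Tcf7l2, the Wnt effector that has shared its name.

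Hoxa9 (chr6:52223100-52231089), Hoxa10 (chr6:52231197-52240854) and Hoxa13 (chr6:52257694-52260880) lie in the Hoxa cluster on the minus strand of GRCm38, the assembly of the mm10 build named for these data. Isl1 (chr13:116298281-116309689) lies on the minus strand and Twist1 (chr12:33957671-33959829) on the plus strand. The 250 bases before the start of the transcript are shown for Hoxa9 and Hoxa10, neighbours of which Hoxa10 was called between the stromal classes and Hoxa9 was not, and for Isl1 and Twist1, which were higher in fibroblasts. They come from RefSeq (GRCm38.p6), from which windows were taken for 7 of the 10 genes, and are written in the direction of transcription. The Hoxa9 window lies inside the longer span that GENCODE gives the gene. The 3′ counts do not tell transcript starts apart. Capitals mark CANNTG, the core that bHLH factors bind, and TAAT or its reverse complement ATTA, the core of most homeodomain sites, and no 2 of these matches overlap.
Hoxa9, chr6:52227371-52227620, minus strand: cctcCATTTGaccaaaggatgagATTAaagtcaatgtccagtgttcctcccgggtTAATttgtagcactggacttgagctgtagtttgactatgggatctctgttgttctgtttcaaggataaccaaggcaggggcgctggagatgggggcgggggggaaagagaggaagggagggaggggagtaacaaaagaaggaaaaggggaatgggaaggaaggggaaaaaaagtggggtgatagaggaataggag
Hoxa10, chr6:52240855-52241104, minus strand: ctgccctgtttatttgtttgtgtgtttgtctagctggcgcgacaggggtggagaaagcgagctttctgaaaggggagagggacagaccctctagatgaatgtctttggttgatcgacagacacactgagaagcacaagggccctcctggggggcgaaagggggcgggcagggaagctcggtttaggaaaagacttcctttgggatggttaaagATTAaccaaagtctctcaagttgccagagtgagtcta
Isl1, chr13:116309689-116309938, minus strand: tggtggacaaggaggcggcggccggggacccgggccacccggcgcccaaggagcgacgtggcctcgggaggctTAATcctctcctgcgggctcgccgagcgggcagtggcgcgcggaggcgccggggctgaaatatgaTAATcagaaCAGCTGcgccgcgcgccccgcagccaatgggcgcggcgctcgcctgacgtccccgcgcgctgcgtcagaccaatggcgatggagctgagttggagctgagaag
Twist1, chr12:33957421-33957670, plus strand: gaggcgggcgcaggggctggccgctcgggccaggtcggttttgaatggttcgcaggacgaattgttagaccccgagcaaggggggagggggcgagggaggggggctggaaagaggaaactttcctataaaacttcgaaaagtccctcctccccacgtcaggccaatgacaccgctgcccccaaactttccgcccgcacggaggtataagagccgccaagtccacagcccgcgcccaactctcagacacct
On both strands, the Hoxa9 window held 1 CANNTG and 2 TAAT matches, the Isl1 window 1 and 2, the Hoxa10 window 0 and 1, and the Twist1 window none of either. RefSeq gives a further Hoxa10 start, whose window (chr6:52234940-52235189, not shown) held 0 CANNTG and 2 TAAT matches. Among all 32851 promoter windows of this length, 66.2% held CANNTG and 54.9% held TAAT. A match describes the letters of the window only and does not show that a factor binds there.

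The 6 tables held 5348 to 15062 barcodes with 54604109 to 111985678 unique molecular identifiers (UMIs, counts of single RNA molecules). Clustering without the members gave 6130 fibroblasts, 4325 myofibroblasts and 37599 urothelial cells, named from marker genes (Cd34, Mfap5, Pi16 and others against Acta2, Car3, Cxcl14 and others). In the sums of fibroblasts the fibroblast markers together ranged from 1751 to 10130 CPM over the libraries, and in the myofibroblasts from 306.9 to 2308 CPM. The myofibroblast markers together ranged from 593.1 to 2225 CPM in fibroblasts and from 8318 to 22040 CPM in myofibroblasts. CPM are UMIs per 1000000 UMIs of all cells of a class in a library, so fewer expressing cells and less RNA per cell cannot be told apart in them. The stromal cells were spread unevenly: chronic replicate 2 held 103 fibroblasts and 96 myofibroblasts, and chronic replicate 1 held 66 myofibroblasts. Acute replicate 2 gave 2768 of the myofibroblasts. Libraries shared 36 to 229 barcodes in pairs, at most 2.28% of the smaller one.

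The first question was which of the factors set the stroma apart from the urothelium. Mesenchymal cells (fibroblasts, myofibroblasts and their proliferating cells) were compared with urothelial cells of the same library by edgeR on summed UMIs. Of the 10 members 8 were higher in mesenchymal cells, 1 was lower and 1 did not pass the threshold, where 68.8% of all 13314 genes tested were called in either direction. The median log2 difference of the members was 3.92, against -0.05 over all genes tested. The members were grouped as connective tissue markers with earlier results known, so this number and median are not read as a result. Genes scarce in urothelial cells, such as Twist1 with 82 UMIs in 37599 cells, could hardly be called lower. The members that were lower or not called were the Hox genes Hoxa9 and Hoxa10. Mesenchymal sums mix the stromal classes in unequal parts. Hoxa10 was higher in myofibroblasts than in urothelial cells in 6 of 6 libraries without overlap of the ranges, and urothelial cells were higher than fibroblasts in 3 of 6. These orders were not tested.

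**Figure D1:**
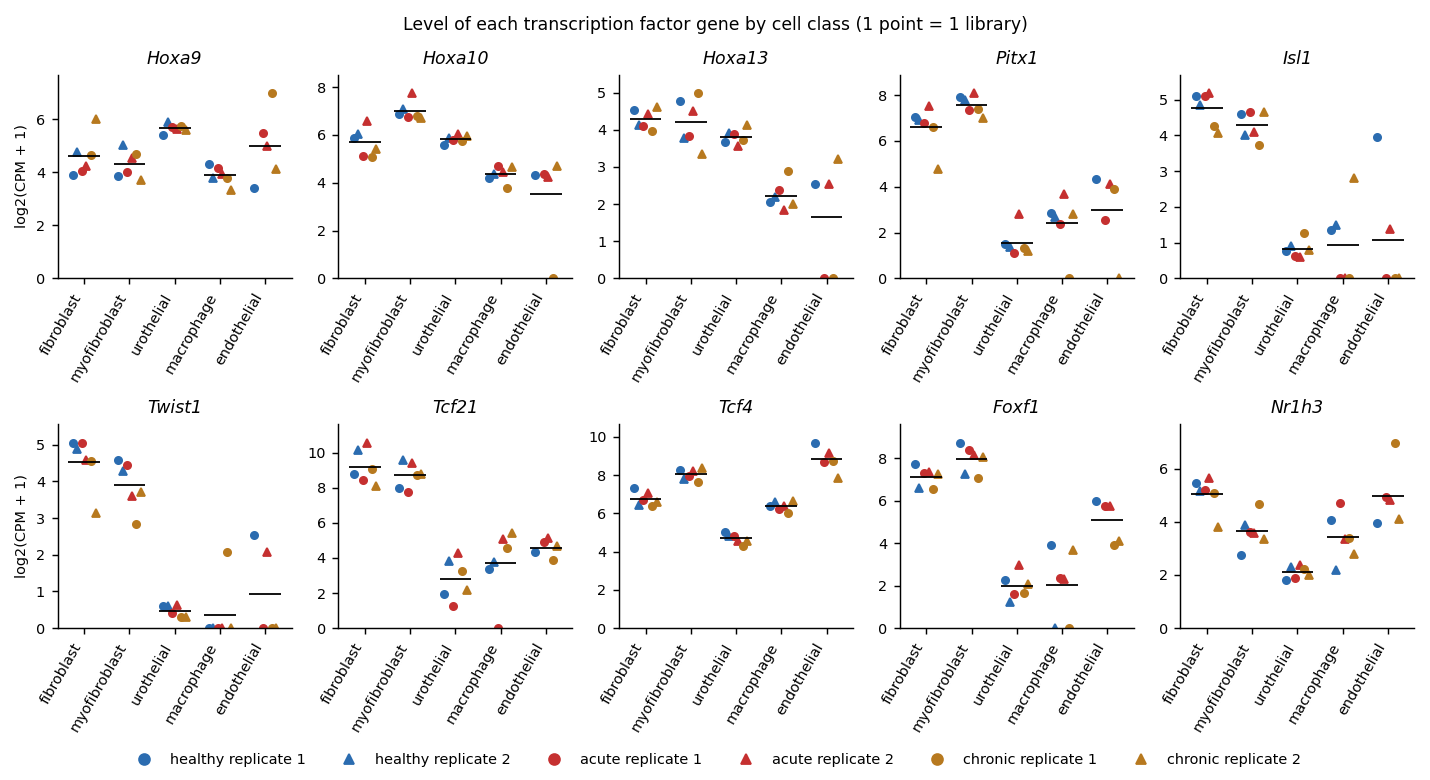
Levels of the 10 genes in 5 cell classes as log2(CPM + 1), with 1 point per library (colour for the condition, shape for the replicate number) and a line at the mean. Pitx1, Isl1, Twist1, Tcf21 and Foxf1 sat far above urothelial cells in both stromal classes, Hoxa9 was higher in urothelial than in endothelial cells in 4 of 5 libraries, and Tcf4 was higher in endothelial cells than in myofibroblasts in 4 of 5.

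Tcf21 was the most abundant member by UMIs. Its level in mesenchymal cells ranged from 311.8 to 1046 CPM over the libraries (median 438.8) and in urothelial cells from 1.38 to 18.8 CPM (median 5.96). The log2 difference was 6.48 ± 0.31 (SE, adjusted p = 4.62e-08), or 89.5-fold. Pitx1 ranged from 73.1 to 249.1 CPM in mesenchymal cells and from 1.16 to 5.93 CPM in urothelial cells, a log2 difference of 6.20 ± 0.22 (adjusted p = 1.42e-08). Foxf1 ranged from 96.1 to 319.8 CPM and from 1.35 to 6.81 CPM (5.99 ± 0.22, adjusted p = 1.54e-08). These were the genes of highest contrast, and their ranges did not overlap.

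Isl1 and Twist1 had fewer UMIs and were also higher in mesenchymal cells. Isl1 lay between 17.6 and 30.9 CPM in mesenchymal cells and between 0.516 and 1.44 CPM in urothelial cells (log2 difference 4.94 ± 0.29, adjusted p = 1.98e-07). Twist1 lay between 9.84 and 30.5 CPM and between 0.223 and 0.542 CPM (5.73 ± 0.26, adjusted p = 3.41e-08). The UMIs of Twist1 in urothelial cells numbered 82 in 37599 cells. Tcf4 (2.71 ± 0.21, adjusted p = 1.61e-06) and Nr1h3 (2.91 ± 0.21, adjusted p = 9.8e-07) were higher in mesenchymal cells by a smaller step. In urothelial cells Tcf4 ranged from 18.9 to 32.1 CPM and Nr1h3 from 2.46 to 4.23 CPM.

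The 3 Hox members had the smallest differences between these cells. Hoxa9 was lower in mesenchymal cells, at 14.2 to 39.4 CPM (median 22.6), than in urothelial cells, at 40.7 to 57.9 CPM (median 49.4), with a log2 difference of -1.15 ± 0.14 (adjusted p = 4.76e-05). Hoxa10 ranged from 37.9 to 183.7 CPM in mesenchymal cells and from 46.8 to 64.2 CPM in urothelial cells, and the difference of 0.46 ± 0.24 did not pass the threshold (adjusted p = 0.117), though it passed without chronic replicate 1 (0.63, adjusted p = 0.0361). Hoxa13, which ranged from 14.8 to 24.1 CPM in mesenchymal and from 10.7 to 16.4 CPM in urothelial cells, was higher in mesenchymal cells by 0.53 ± 0.18 (adjusted p = 0.021), a call that was lost without healthy replicate 1 (adjusted p = 0.0779) or acute replicate 2 (0.0854).

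Droplet libraries carry some RNA of other cells into every cell, so each urothelial level was set beside that of 6 genes of the matrix. For Dcn, Col1a1, Col1a2, Col3a1, Lum and Sparc the urothelial level was 0.525% to 3.30% of the mesenchymal level. Hoxa9 reached 120.2% to 312.8%, Hoxa10 34.96% to 140.6%, Hoxa13 48.3% to 97.0%, Tcf4 8.67% to 24.5% and Nr1h3 9.37% to 26.8%, above all 6 matrix genes in 6 of 6 libraries. Tcf21, at 0.442% to 2.16%, exceeded them in 0 libraries, Pitx1 in 1 and Foxf1 in 2. The part of carried-over RNA in these levels was not tested. Twist1 exceeded them in 4 libraries (1.08% to 3.86%) and Isl1 in 5 (1.78% to 8.13%), from 6 to 53 urothelial UMIs a library.

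The factors were next compared between the stroma and the other cells of the mucosa. Against macrophages 8 of the 9 members tested were higher in mesenchymal cells and none was lower, where 48.8% of 7563 genes were called. Foxf1 (4.93 ± 0.32), Tcf21 (4.62 ± 0.35) and Pitx1 (4.41 ± 0.25) had the highest log2 differences, with adjusted p between 1.01e-08 and 1.72e-07. In 927 macrophages Foxf1 had 17 UMIs, Pitx1 19 and Isl1 4. Genes this scarce there passed the filter on low counts through mesenchymal cells and could hardly be called lower, so the number called is not read as a result. Nr1h3, a gene known from macrophages, was higher in mesenchymal cells by 0.92 ± 0.32 (adjusted p = 0.0314), with 3.60 to 25.0 CPM in macrophages, a call that was lost without healthy replicate 2, acute replicate 2 or chronic replicate 1 (adjusted p = 0.114, 0.0614 and 0.084). Hoxa9 differed by 0.37 ± 0.30 (adjusted p = 0.336). Twist1 did not pass the filter on low counts and had 1 UMI in 927 macrophages.

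Endothelial cells line the vessels of the mucosa. In the 5 libraries with at least 20 endothelial cells, 5 of the 8 members tested were higher in mesenchymal cells and 1 was lower, where 33.3% of 7421 genes were called. Tcf21 (4.31 ± 0.25, adjusted p = 1.29e-08), Pitx1 (3.88 ± 0.30, adjusted p = 2.17e-07) and Hoxa10 (2.59 ± 0.34, adjusted p = 4.31e-05) were higher in mesenchymal cells. In 479 endothelial cells Tcf21 had 35 UMIs, Hoxa10 22, Pitx1 16 and Isl1 4, so the number called is not read as a result here either. Tcf4 was lower by -1.33 ± 0.23 (adjusted p = 0.000459), with 827.8 CPM in endothelial cells of healthy replicate 1, 410.2 and 565.0 CPM in acute replicates 1 and 2, and 430.4 and 230.0 CPM in chronic replicates 1 and 2. Foxf1, which endothelial cells also carried at 13.9 to 62.6 CPM, was 5.29-fold higher in mesenchymal cells (adjusted p = 1.88e-06). Hoxa9 (-0.69 ± 0.40, adjusted p = 0.208) and Nr1h3 (-0.45 ± 0.35, adjusted p = 0.356) did not pass the threshold. Chronic replicate 1 gave 125.0 CPM for each of these in endothelial cells, from 9 UMIs in 27 cells.

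Mural cells, the contractile cells around vessels, numbered at least 20 in the acute libraries only. Pitx1 was at 9.40 and 8.19 CPM there, Tcf21 at 56.4 and 147.4 CPM and Foxf1 at 94.0 and 69.6 CPM, all below both stromal classes of the same library. Hoxa10 was at 47.0 and 65.5 CPM, below the myofibroblasts of the same library. Hoxa9, at 37.6 and 28.7 CPM from 4 and 7 UMIs, lay above both stromal classes (15.4 and 17.9 CPM in fibroblasts, 15.1 and 22.0 CPM in myofibroblasts). Nr1h3, at 37.6 and 32.7 CPM from 4 and 8 UMIs, lay above the 11.3 and 10.8 CPM of myofibroblasts, beside 35.9 and 49.6 CPM in fibroblasts. With 2 libraries these values were not tested.

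Fibroblasts and myofibroblasts of the same library were then compared, the division within the mesenchyme that the study describes. Of the 10 members 3 were higher in fibroblasts, 4 were higher in myofibroblasts and 3 did not pass the threshold, where 19% of 10350 genes were called. From these data the study had reported Twist1 and Nr1h3 regulons (a factor with its predicted targets) as higher in fibroblasts. It had reported Hoxa10, Pitx1 and Tcf4 regulons as higher in myofibroblasts. The members were chosen with earlier results known, so the number called is not separate support for the contrast. The classes had been formed from other genes of the same cells, so the p-values tell how steadily the libraries repeated a difference, and not that the classes are separate types. The median log2 difference of the members was -0.065, against 0.009 over all genes tested. Without pairing the classes by library 3 members were called (Hoxa10, Tcf4 and Nr1h3).

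**Figure D2:**
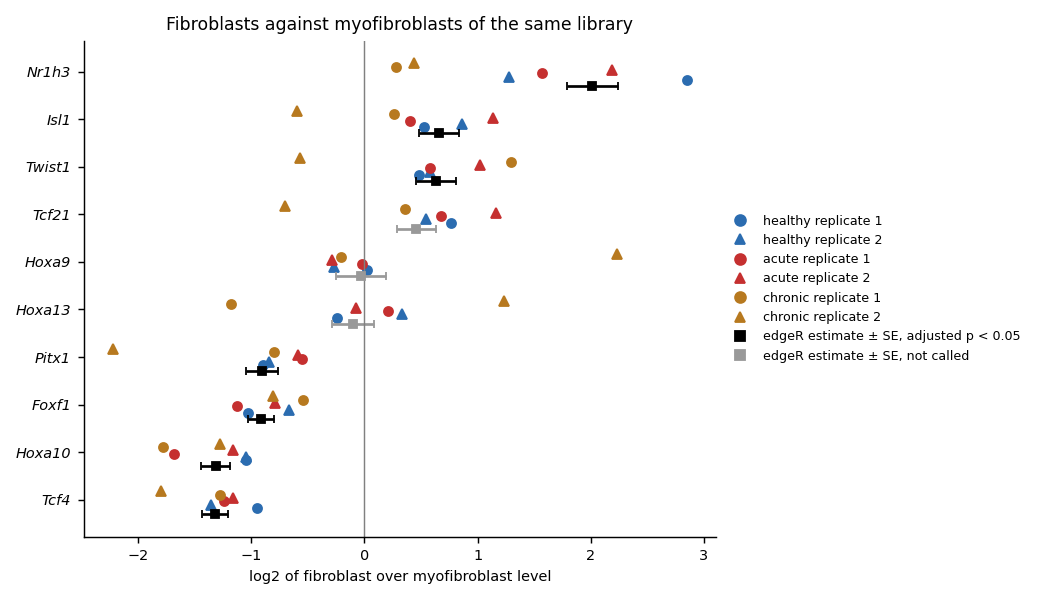
The log2 ratio of the fibroblast to the myofibroblast level of each gene (0.5 UMIs added to each count), with 1 coloured point per library and a square for the edgeR estimate with its SE (black where the adjusted p was below 0.05). Hoxa10, Tcf4, Foxf1 and Pitx1 lie left of 0 in 6 of 6 libraries and Nr1h3 right of 0 in 6 of 6.

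Hoxa10, a gene of uterine and lower urinary tract mesenchyme, was higher in myofibroblasts. In fibroblasts it was at 56.9 and 65.0 CPM in healthy, 33.4 and 95.9 CPM in acute, and 32.9 and 42.0 CPM in chronic replicates 1 and 2. In myofibroblasts it was at 117.8 and 133.9, 107.3 and 214.4, and 110.4 and 103.1 CPM in the same order. The 2 ranges did not overlap, and fibroblasts were lower by a log2 difference of -1.32 ± 0.13 (adjusted p = 1.55e-06), or 2.49-fold.

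Tcf4, the E protein, followed the same direction. It was at 160.5 and 86.6 CPM in healthy, 104.6 and 134.3 CPM in acute, and 81.9 and 94.4 CPM in chronic fibroblasts. In myofibroblasts it was at 310.8 and 221.7, 246.7 and 299.9, and 196.3 and 330.5 CPM. The lowest myofibroblast level lay above the highest fibroblast level, and the log2 difference was -1.32 ± 0.12 (adjusted p = 4.89e-07).

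Foxf1 and Pitx1 were higher in myofibroblasts of every library, although their ranges overlapped. Foxf1 ranged from 94.5 to 208.2 CPM in fibroblasts (median 153.7) and from 134.9 to 424.3 CPM in myofibroblasts (median 275.4), a log2 difference of -0.92 ± 0.12 (adjusted p = 3.19e-05). Pitx1 ranged from 26.2 to 180.6 CPM (median 115.3) and from 127.4 to 271.6 CPM (median 191.4), a log2 difference of -0.91 ± 0.145 (adjusted p = 0.000263). The low Pitx1 level in fibroblasts was that of chronic replicate 2 and rested on 10 UMIs.

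Nr1h3 showed the strongest contrast toward fibroblasts. Its fibroblast levels were 42.7 and 34.9 CPM in healthy, 35.9 and 49.6 CPM in acute, and 33.2 and 13.1 CPM in chronic libraries. Its myofibroblast levels were 5.81 and 13.9, 11.3 and 10.8, and 24.5 and 9.10 CPM. Fibroblasts were higher in 6 of 6 libraries by 2.01 ± 0.23 (adjusted p = 7.11e-06), or 4.04-fold. The chronic libraries had the smallest contrasts, on 4 and 3 myofibroblast UMIs.

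Isl1 (0.66 ± 0.18, adjusted p = 0.015) and Twist1 (0.63 ± 0.17, adjusted p = 0.0176) were higher in fibroblasts in 5 of 6 libraries. Isl1 ranged from 15.7 to 35.4 CPM in fibroblasts and from 12.3 to 24.5 CPM in myofibroblasts, and Twist1 from 7.87 to 32.2 CPM and from 6.13 to 23.0 CPM. Both calls were lost without acute replicate 2, where the adjusted p was 0.221 for Isl1 and 0.176 for Twist1, and that of Isl1 was lost with DESeq2 (adjusted p = 0.0627). Tcf21 ranged from 270.1 to 1524 CPM in fibroblasts and from 214.7 to 769.1 CPM in myofibroblasts and did not pass the threshold (0.46 ± 0.17, adjusted p = 0.0825). Without chronic replicate 2, in which alone its fibroblasts were lower, the difference was 0.68 and passed (adjusted p = 0.0006).

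Hoxa9 (-0.03 ± 0.22, adjusted p = 0.969) and Hoxa13 (-0.10 ± 0.19, adjusted p = 0.791) did not pass the threshold, and the CPM was higher in fibroblasts in 3 of 6 libraries for each. With the 0.5 UMIs added for the plotted ratios, Hoxa9 was higher in fibroblasts in 2 of 6. So of the 3 Hox members Hoxa10 alone was called, although whether its contrast differs from theirs was not tested. Hoxa13 ranged from 14.7 to 23.6 CPM in fibroblasts and from 9.10 to 30.7 CPM in myofibroblasts, on 3 to 234 myofibroblast UMIs a library.

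Chronic replicate 2 stood apart among the fibroblasts. The 8 mesenchymal markers summed to 11770 CPM in its fibroblasts, against 28400 to 50410 CPM in the other libraries, and the 11 urothelial markers to 9699 CPM, against 1507 to 5859 CPM. Without it 8 of the 10 members were called, and 2106 of all 10953 genes tested. Leaving out acute replicate 2, which held the most myofibroblasts, left 5 members called, and 1178 of 9090 genes, against 1965 of 10350 with all libraries. The part of urothelial RNA in the levels of this library was not tested.

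The share of cells with at least 1 UMI was taken after each cell was thinned to 2000 UMIs, which left out shallower cells. Of fibroblasts 102 to 1002 cells a library remained, and of myofibroblasts 45 to 2650. Tcf4 was found in 14.8% to 25.2% of fibroblasts and in 33.3% to 52.1% of myofibroblasts, against 3.57% to 6.31% of urothelial cells. Foxf1 was found in 15.5% to 34.0% and 22.8% to 53.9%, Pitx1 in 4.90% to 30.4% and 17.8% to 41.6%, and Hoxa10 in 6.10% to 18.3% and 16.7% to 33.7%. Each of these 4 genes was found in a higher share of myofibroblasts in 6 of 6 libraries (p = 0.03125, exact two-sided permutation of signs, the smallest that 6 pairs allow), but no share passed 0.05 after adjustment over the 10 genes (adjusted p = 0.0781, exact permutation).

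Among urothelial cells 0.260% to 1.17% had a UMI of Pitx1 and 0.226% to 1.40% a UMI of Foxf1 at this depth. Hoxa10 was found in 9.10% to 11.5% and Hoxa9 in 7.39% to 10.8% of urothelial cells, and Twist1 in 0.0242% to 0.135%. Without thinning, at median depths of 1952 to 3336 UMIs in fibroblasts and 3844 to 5464.5 UMIs in urothelial cells (mitochondrial and ribosomal genes left out), Hoxa9 was found in 3.47% to 18.4% of fibroblasts and 19.0% to 25.5% of urothelial cells.

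Tcf21 was found in 39.2% to 86.4% of fibroblasts, the highest share of the members in 6 of 6 libraries, and in 32.5% to 68.1% of myofibroblasts, the highest in 3 of 6. Nr1h3 was found in 6.69% of fibroblasts and 3.08% of myofibroblasts on average, higher in fibroblasts in 5 of 6 libraries (exact permutation p = 0.09375).

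Within the mesenchyme, the cells were clustered a second time into 4 fibroblast, 3 myofibroblast and 1 proliferating sub-cluster. The fibroblast sub-clusters were led by Clec3b, Mfap5 and Pi16, by Clec3b, Bglap2 and Scara5, by Inmt and Gsn, and by the immediate-early and stress genes Fosb, Egr1 and Nfkbia. The myofibroblast sub-clusters were all led by Car3 and Cxcl14, with Acta2, with Rbp4 and Col6a3, or with Mfap4 and Lrat. Since sub-clusters are sets of the same cells, the levels below are descriptions.

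**Figure D3:**
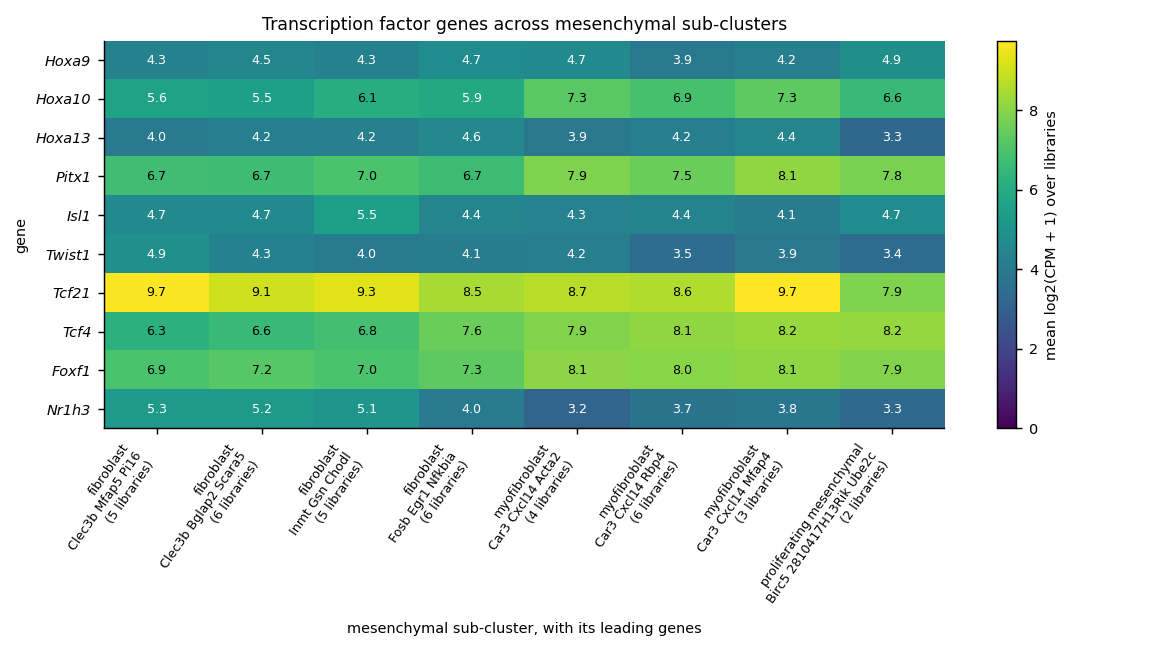
Mean log2(CPM + 1) of each gene over the libraries with at least 20 cells, in the mesenchymal sub-clusters named by their leading genes. Hoxa10, Pitx1 and Foxf1 were higher in each myofibroblast column than in each fibroblast column, Nr1h3 was lower there, and Tcf21 was high in the Pi16 and Inmt fibroblasts and the Mfap4 myofibroblasts.

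Hoxa10 averaged 158.3, 121.0 and 162.3 CPM in the Acta2, Rbp4 and Mfap4 myofibroblasts. In the fibroblasts led by Pi16, Bglap2, Inmt and Fosb it averaged 51.2, 47.4, 72.5 and 66.8 CPM. Pitx1 averaged 189.3 to 281.7 CPM in the myofibroblast and 108.1 to 139.3 CPM in the fibroblast sub-clusters. So the averages of these genes divided the sub-clusters the way the classes did. They rest on unlike sets of 3 to 6 libraries, and single libraries crossed. Hoxa10 reached 147.8 CPM in the Fosb fibroblasts, against a lowest value of 97.1 CPM in the Rbp4 myofibroblasts. Pitx1 reached 206.5 CPM in the Inmt fibroblasts, against a lowest value of 128.8 CPM in the Rbp4 myofibroblasts.

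Tcf4 kept the same order of averages with a smaller step. It averaged 203.5 CPM in the Fosb fibroblasts, against 77.6, 100.5 and 116.1 CPM in the Pi16, Bglap2 and Inmt fibroblasts and 240.3 to 302.4 CPM in the myofibroblasts. In the Fosb sub-cluster it was at 298.3, 141.2, 168.4, 337.8, 108.4 and 167.2 CPM over the 6 libraries.

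Tcf21 averages did not part fibroblast from myofibroblast sub-clusters. It averaged 942.2, 772.1, 618.0 and 396.5 CPM in the Pi16, Inmt, Bglap2 and Fosb fibroblasts. It averaged 947.8 CPM in the Mfap4 myofibroblasts, where healthy replicates 1 and 2 and acute replicate 2 gave 432.6, 1288 and 1122 CPM. The Mfap4 average rests on these 3 libraries and the Pi16 average on 5, and the Mfap4 sub-cluster was the highest in 1 of its 3 libraries. In the Acta2 and Rbp4 myofibroblasts it averaged 451.4 and 420.1 CPM. Isl1 was highest in the Inmt fibroblasts, at 47.3 CPM on average and first in 4 of 5 libraries, against 23.1 to 27.3 CPM in the other fibroblasts. Twist1 was at 29.5 and 29.0 CPM in the Pi16 and Bglap2 fibroblasts and at 16.5 CPM in the Inmt fibroblasts. Nr1h3 averaged 35.9 to 38.2 CPM in the Pi16, Bglap2 and Inmt fibroblasts, 24.2 CPM in the Fosb fibroblasts and 8.77 to 14.2 CPM in the myofibroblasts.

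The genes whose pattern was most like that of a member were sought over 37 sums of sub-cluster and library, with the library mean taken out, among 10378 genes. These points share libraries and cells, so the correlations are descriptions. Tcf4 ran closest with Col6a3 (Pearson r = 0.949), a chain of type VI collagen, and Fmod (0.946), a collagen-binding proteoglycan. Tcf21 ran closest with Tmem50a (0.901) and G0s2 (0.895), Hoxa10 with F3 (0.900), the gene of tissue factor, and Plppr5 (0.900), Foxf1 with Emilin1 (0.899), an elastic fibre protein, and Nkd1 (0.890), a Wnt inhibitor, and Pitx1 with Prex2 (0.895) and Tenm3 (0.843). Nr1h3 ran closest with Gm26532 (0.833) and Meis2 (0.810). Hoxa9, Hoxa13, Isl1 and Twist1, with fewer UMIs, reached at most 0.747, 0.704, 0.696 and 0.752.

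The other Hox genes were measured in the same classes. Of the 25 others that every library listed, 9 passed the filter on low counts in the comparison of fibroblasts with myofibroblasts, of which 2 were higher in fibroblasts, 2 were lower and 5 did not pass the threshold, with a median log2 difference of 0.61, where 19% of all genes were called. Hoxa11, which lies between Hoxa10 and Hoxa13 in the cluster, was higher in myofibroblasts (-1.54 ± 0.13, adjusted p = 3.31e-07), at 36.8 to 118.8 CPM against 15.4 to 39.8 CPM in fibroblasts. Hoxc11, its paralog in the Hoxc cluster, was higher there too (-1.41 ± 0.26, adjusted p = 0.00088). Hoxd9 (1.36 ± 0.32, adjusted p = 0.00649) and Hoxa7 (1.04 ± 0.16, adjusted p = 0.000136) were higher in fibroblasts. So paralogs 10 and 11 of the Hoxa cluster were higher in myofibroblasts and paralog 7 in fibroblasts, with paralogs 9 and 13 not called in either direction.

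**Figure D4:**
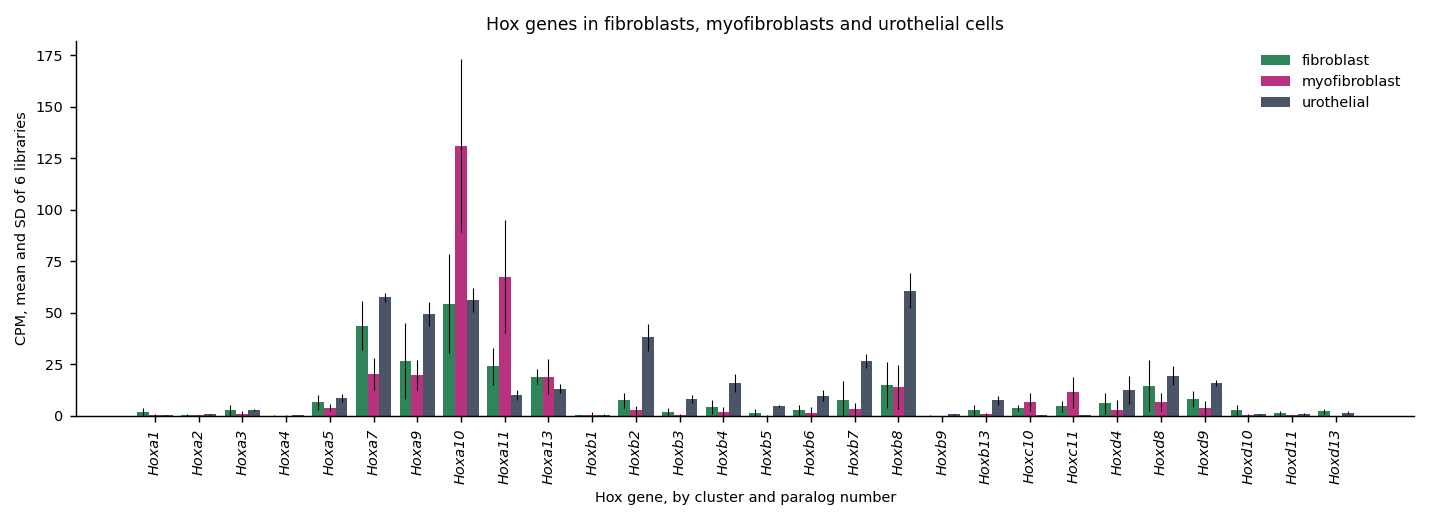
Mean CPM with SD over 6 libraries of the Hox genes listed in all tables, in fibroblasts, myofibroblasts and urothelial cells, ordered by cluster and paralog number. Hoxa10 and Hoxa11 are highest in myofibroblasts, and the Hoxb paralogs 5 to 8 sum to 101.8 CPM in urothelial cells against 26.6 CPM in fibroblasts.

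Against urothelial cells 3 of the 20 other Hox genes tested were higher in mesenchymal cells and 13 were lower, with a median log2 difference of -1.18, where 68.8% of all genes were called. Hoxb5 (-3.35 ± 0.39) and Hoxb3 (-2.91 ± 0.26) were higher in urothelial cells, with adjusted p of 3.29e-05 and 5.49e-06. Hoxc10 (5.83 ± 0.32) and Hoxc11 (5.60 ± 0.33) were higher in mesenchymal cells, with adjusted p of 1.32e-07 and 2.32e-07. Summed over paralogs 9 to 13, the Hoxa genes averaged 124.0 CPM in fibroblasts, 237.3 CPM in myofibroblasts and 128.7 CPM in urothelial cells, while Hoxb paralogs 5 to 8 averaged 26.6, 18.4 and 101.8 CPM. Against macrophages 2 of 2 tested were higher in mesenchymal cells, where 48.8% of all genes were called. Against endothelial cells 1 of 5 was higher and 4 were lower, where 33.3% of all genes were called, among them Hoxb7 (-3.50 ± 0.56, adjusted p = 0.000229).

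The lists of factors that work with the members were compared between the stromal classes, where 19% of all genes were called. Among the Hox cofactors, TALE homeodomain proteins that bind DNA with Hox proteins, Meis2 (1.04 ± 0.14) and Meis1 (0.97 ± 0.17) were higher in fibroblasts and Pknox2 (-1.13 ± 0.19) was lower, with adjusted p between 3.66e-05 and 0.000777. Of 7 bHLH partners tested 2 were higher in fibroblasts, Id4 (1.11 ± 0.25) and Id2 (0.91 ± 0.14), which encode inhibitors that bind E proteins, with adjusted p of 0.00402 and 0.000177. Of 22 other stromal factors tested 8 were higher in fibroblasts and 4 were lower. Tbx18 (4.38 ± 0.35, adjusted p = 1.72e-07), a gene of ureteric mesenchyme, Foxp2 (3.19 ± 0.41, adjusted p = 3e-05) and Osr1 (2.08 ± 0.19, adjusted p = 7.25e-07) were higher in fibroblasts, and Foxf2 (-1.44 ± 0.14, adjusted p = 1.45e-06), the paralog of Foxf1, was higher in myofibroblasts. Of 11 partners and targets of LXR tested, none was higher in fibroblasts, and Mylip, a target that degrades the LDL receptor, was lower (-0.84 ± 0.15, adjusted p = 0.000628). Neither LIM cofactor tested was called.

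In the comparison with urothelial cells, where 68.8% of all genes were called, 7 of 9 Hox cofactors were higher in mesenchymal cells and 1 was lower, led by Pknox2 (5.39 ± 0.24). Of the bHLH partners 4 of 7 were higher and 1 was lower, led by Twist2 (5.70 ± 0.24), the paralog of Twist1. Of 23 other stromal factors 16 were higher and 2 were lower, led by Tbx18 (6.85 ± 0.34) and Osr1 (6.24 ± 0.27). Of the LXR partners and targets 6 of 11 were higher and 3 were lower, among them Rxra (-1.68 ± 0.18), the gene of the partner of LXR. Of the LIM cofactors Lmo4 was higher (0.60 ± 0.13) and the other tested was not called. The adjusted p of each gene named here was at most 0.00171.

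The last question was whether the factors changed after CPP. In fibroblasts 0 of 10 members were called between acute and healthy (0.00874% of 11441 genes called), 0 between chronic and healthy (0.00874%) and 0 between acute and chronic (0%). In myofibroblasts 0 of 9 members tested were called between acute and healthy (0.0248% of 8052 genes), chronic and healthy (0%) or acute and chronic (0%). At an unadjusted p below 0.05 the fibroblast comparisons held 0, 1 and 1 members, where 291, 723 and 498 of all genes lay below it, and the myofibroblast comparisons 0, 0 and 0, where 228, 616 and 822 did. DESeq2 called 0 members in each. With 2 libraries a group and the main settings edgeR called at most 2 of all genes in any of these comparisons. Without the filter on low counts it called 2, 3 and 0 in fibroblasts and 104, 95 and 220 in myofibroblasts. DESeq2 called 32, 36 and 1 of all genes in fibroblasts and 7, 13 and 34 in myofibroblasts, in the same order. So a change smaller than the spread between libraries was not detectable here.

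**Figure D5:**
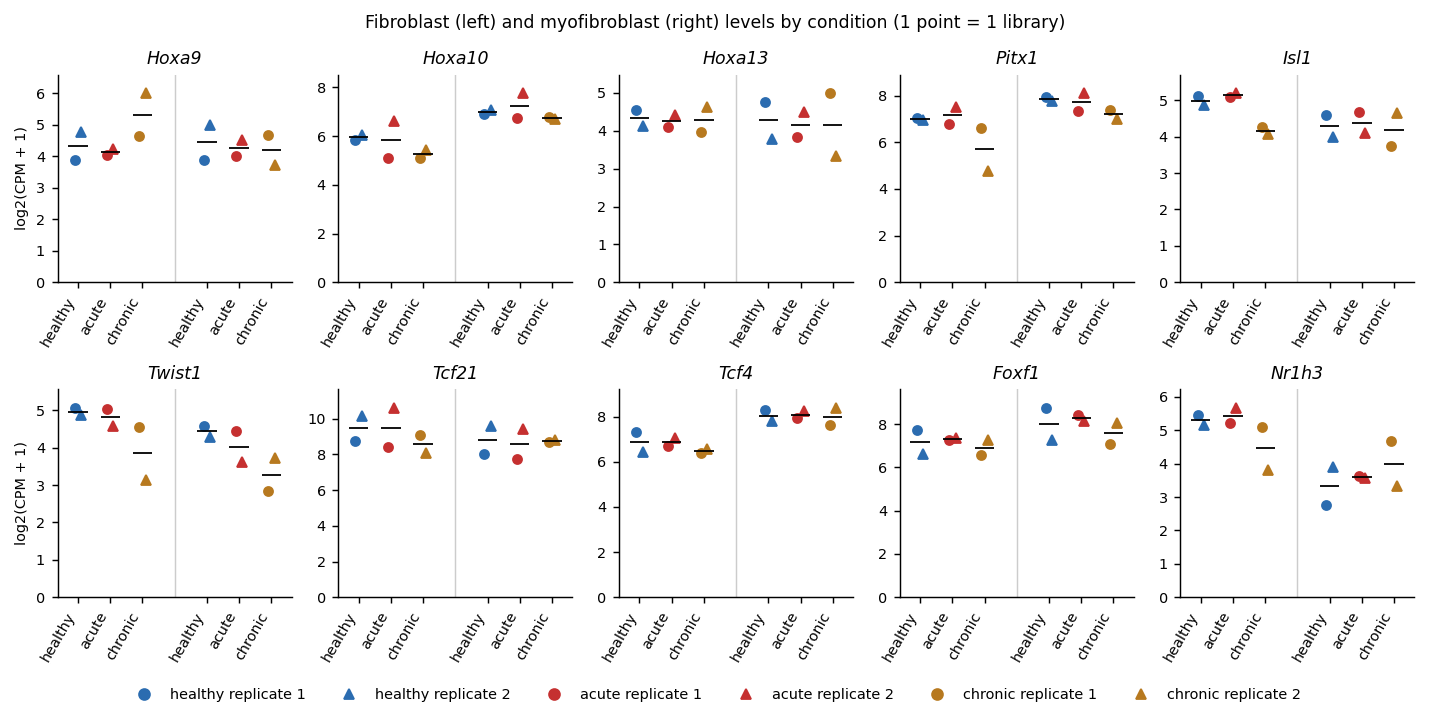
Levels of each gene as log2(CPM + 1) in fibroblasts (left of the grey line) and myofibroblasts (right) of healthy, acute and chronic libraries, with 1 point per library and a line at the mean. Libraries of 1 condition lie as far apart as the conditions do for most genes, as for Tcf21 at 436.1 and 1123 CPM in healthy fibroblasts.

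In fibroblasts Tcf21 had the largest SE of the members in each comparison of conditions. Its fibroblast levels were 436.1 and 1123 CPM in healthy, 343.8 and 1524 CPM in acute, and 538.9 and 270.1 CPM in chronic libraries, so each condition overlapped the others. The libraries also filled the fibroblast sub-clusters unequally, as the Inmt sub-cluster held 1046 of 1700 fibroblasts in acute replicate 2 and 67 of 1004 in healthy replicate 1, and the Pi16 sub-cluster 8 of 103 in chronic replicate 2. The part of this in the levels was not tested. The log2 difference was 0.30 ± 0.74 for acute and -0.99 ± 0.75 for chronic against healthy (adjusted p = 1 and 0.86). In myofibroblasts it was at 257.2 and 769.1, 214.7 and 679.3, and 417.1 and 439.7 CPM.

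Isl1 had the lowest unadjusted p of the members in the condition comparisons of fibroblasts and myofibroblasts, 0.0194 by edgeR between acute and chronic fibroblasts. In fibroblasts it was at 33.6 and 28.1 CPM in healthy, 33.4 and 35.4 CPM in acute, and 18.2 and 15.7 CPM in chronic libraries, so both chronic values lay below the 4 others. The value of chronic replicate 2 came from 103 fibroblasts, and 3 of the 102 kept at 2000 UMIs had an Isl1 UMI. In these fibroblasts the mesenchymal markers summed to 11770 CPM, the lowest of the libraries. The difference of chronic from healthy was -0.88 ± 0.36 (unadjusted p = 0.0375 and adjusted p = 0.768 by edgeR), and that of acute from chronic was 1.04 ± 0.36 (adjusted p = 0.962). In myofibroblasts Isl1 was at 23.2 and 15.0, 24.5 and 16.1, and 12.3 and 24.3 CPM, with no such gap.

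In chronic fibroblasts 9 of the 10 members had a negative log2 difference from healthy, of which 0 were called, and the median was -0.72, against -0.01 over all genes tested. The fibroblast markers summed to 7944 and 1751 CPM and the mesenchymal markers to 31090 and 11770 CPM in chronic replicates 1 and 2. The part of this in the differences was not tested. Pitx1 was at 130.2 and 121.0 CPM in healthy, 109.7 and 180.6 CPM in acute, and 96.9 and 26.2 CPM in chronic fibroblasts (-0.97 ± 0.56). Hoxa10 differed by -0.82 ± 0.52 and Twist1 by -0.82 ± 0.45. Hoxa9 differed in the other direction (0.87 ± 0.52), at 13.9 and 26.2 CPM in healthy, 15.4 and 17.9 CPM in acute, and 23.8 and 62.9 CPM in chronic fibroblasts. All 11 urothelial markers were detected in the fibroblasts of each library, and their sum was 1507 and 3944 CPM in healthy, 2656 and 2496 CPM in acute, and 5859 and 9699 CPM in chronic fibroblasts. Hoxa9 was higher in urothelial than in mesenchymal cells, at 40.7 to 57.9 CPM in urothelial cells over the libraries. The 62.9 CPM in fibroblasts of chronic replicate 2 lay above that range and rested on 24 UMIs. The part of urothelial RNA in these levels was not tested.

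In myofibroblasts the 9 members tested were not called either. Hoxa10 differed from healthy by 0.43 ± 0.36 in acute and -0.29 ± 0.40 in chronic libraries. Twist1 differed by -0.56 ± 0.46 and -1.14 ± 0.67, the latter on 5 chronic UMIs in all, and Pitx1 by -0.04 ± 0.33 and -0.72 ± 0.36 (adjusted p = 0.694). Nr1h3 did not pass the filter. The urothelial markers summed to 1315 and 3680 CPM in healthy, 1548 and 1974 CPM in acute, and 6766 and 4737 CPM in chronic myofibroblasts.

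Whether CPP acted differently on the 2 classes was tested by the interaction of class and condition. For acute injury 0 of 10 members were called (0% of 11626 genes), and for chronic injury 0 of 10 (0.0086%). Hoxa9 (-1.55 ± 0.63) and Nr1h3 (1.80 ± 0.80) had an unadjusted p below 0.05 for chronic injury, and both had an adjusted p of 0.99. At an unadjusted p below 0.05 the acute comparison held 0 members, where 362 of all genes lay below it in the acute and 522 in the chronic comparison. DESeq2 called 0 members in both.

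In urothelial cells, where the depth was greatest, 0 of 10 members were called in acute (0.00724% of 13817 genes) or chronic (0%) against healthy libraries, with 0 and 1 at an unadjusted p below 0.05, where 896 and 1020 of all genes lay below it, and 0 by DESeq2. Hoxa10 differed by 0.21 ± 0.21 in acute and 0.14 ± 0.21 in chronic libraries, Hoxa9 by 0.01 ± 0.23 and 0.03 ± 0.23, and Hoxa13 by -0.07 ± 0.24 and 0.16 ± 0.24. Their urothelial levels stayed between 40.7 and 57.9 CPM for Hoxa9 and between 46.8 and 64.2 CPM for Hoxa10 over the 6 libraries. Tcf4 had the lowest unadjusted p (0.0258), at -0.52 ± 0.19 in chronic against healthy urothelial cells (adjusted p = 0.619).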

How the data were processed

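UMI counts per gene and cell were deposited by the authors as 1 table per library. Per the labels and the methods of the study, reads were processed with Cell Ranger and aligned to mm10, and the tables hold cells with up to about 10% mitochondrial UMIs. Genes listed in all 6 tables were used (14338), and 1 line of the healthy replicate 1 table was cut short. Genes found in fewer than 8 cells (healthy replicate 1) or 6 cells (acute replicate 1) were left out of 2 tables.

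Cells with more than 500 genes and less than 10% mitochondrial UMIs were kept. Called doublets and clusters rich in them were left out (50135 of 55398 cells remained). Libraries were integrated with Seurat 5.3.0 and sctransform 0.4.2 and clustered with scanpy 1.11.5 and leidenalg 0.10.2. The members and the genes of the fixed lists (92 genes) were kept out of the clustering. Clusters were named from at least 3 detected markers. Counts were summed per class and library where at least 20 cells were present, mitochondrial and ribosomal genes left out. Sums were tested with edgeR 4.0.16 (quasi-likelihood F test, TMM factors, Benjamini-Hochberg adjustment over all genes tested, threshold 0.05, R 4.3.3), with the library as a block between classes. The errors of log2 differences are SEs. The sums tested held 72026 (endothelial cells, chronic replicate 1) to 38759238 UMIs (urothelial cells, acute replicate 2). Scripts were tested on simulated data. Alternatives were DESeq2 1.42.0, no TMM factors, no filter on low counts, clusters without integration, doublets kept, another block, other depths of thinning, and each library left out, for shares of cells an alternative added after seeing the data.

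The members and lists were chosen with earlier results of these data known. All 10 members were named in the comparisons, and of each list up to 4 called genes of the largest difference. A gene of the Hox cofactor list is not reported here. Intervals and limits cover counting error only. The batch of each library was not given in the sources used here, so batch and condition cannot be told apart. Pitx1, Tcf4, Foxf1, Nr1h3 and Hoxa9 overlap other annotated genes on the same strand, so part of their counts could belong to those. Tcf21 overlaps Gm10824 on the opposite strand only.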

Additional observations from a re-analysis of the deposited data

Results flagged for a closer look

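In 40 sets of 5 or 6 libraries, 3 held a library whose gap to the nearest other exceeded Dixon's critical value, where chance gives about 1 in 20. In chronic replicate 2 the log2 ratio of the Hoxa9 level in fibroblasts to that in myofibroblasts was 2.23, against -0.29 to 0.03 in the other libraries, and rested on 24 and 4 UMIs. In the same library the ratio for Pitx1 was -2.23, against -0.90 to -0.55, on 10 and 42 UMIs. The log2 ratio of Twist1 in mesenchymal to endothelial cells was 3.65 in acute replicate 1, against 1.36 to 1.90 in the other 4 libraries, on 66 and 0 UMIs, with 0.5 UMIs added to each count. Endothelial cells of acute replicate 1 and of chronic replicates 1 and 2 had 0 Twist1 UMIs, so these ratios are set by the UMIs added and by depth, and nothing is read from them. The causes of the other values were not tested.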

How the results depend on the processing

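Of 1586 results of single members under alternatives, 1569 kept their side of the threshold, 12 fell below it, 5 rose above it and 0 were called in the reverse direction. These counts do not cover the direction of results that were not called. All results between conditions and of the interactions stayed uncalled, where edgeR with the main settings called at most 2 of all genes. Between fibroblasts and myofibroblasts 109 of 120 kept their side. Against urothelial cells, macrophages and endothelial cells 117 of 120, 104 of 107 and 95 of 95 did. Healthy replicate 2, with 15 endothelial cells, was not in the endothelial comparison. Leaving it out repeated the main result there, so those counted results could not change. Without the replicate block, here the pairing of classes by library, 3 of the 10 members were called between fibroblasts and myofibroblasts (1 higher), against 7, and 762 of all genes against 1965. Pitx1 (-0.88, adjusted p = 0.141 by edgeR), Isl1 (0.47, 0.397), Twist1 (0.55, 0.391) and Foxf1 (-0.98, 0.056) lost their call. Leaving out 1 library gave 5 to 8 called members there, 8 to 10 against urothelial cells (10 without chronic replicate 1, where Hoxa10 passed at 0.63), 6 to 9 against macrophages and 5 to 8 against endothelial cells, where 1178 to 2106, 8408 to 9463, 3137 to 4506 and 1780 to 3052 of all genes were called. DESeq2 called 6, 9, 8 and 6 (1621, 9338, 3489 and 2185 of all genes) and did not call Isl1 (adjusted p = 0.0627). Tcf21 passed between fibroblasts and myofibroblasts with no TMM factors, no filter or doublets kept (0.52, 0.50 and 0.82). With doublets kept, the myofibroblast class held a sub-cluster of 1600 cells, 1318 of them from acute replicate 2. Its leading genes included the urothelial marker Krt15. The part of these cells in the difference of 0.82 was not tested. The share of cells with Isl1 differed by 1.90 percentage points (exact permutation p = 0.03125) at 1000 UMIs, and that with Nr1h3 by 4.77 (exact permutation p = 0.03125) unthinned, each with an adjusted p of 0.0625 over the 10 genes.

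Between conditions 0 members were called under every alternative run. Over all genes, DESeq2 called 276 and 125 in urothelial cells (acute and chronic against healthy) where edgeR called 1 and 0, and 34 between acute and chronic myofibroblasts against 0, where no filter gave 220. With the replicate number as a replicate block 0 members were called. The replicate numbers did not mark the same pairing in all conditions. In fibroblasts, myofibroblasts and urothelial cells, differences of replicate 1 from replicate 2 correlated at 0.18 to 0.386 between healthy and acute. The correlations were -0.345 to -0.189 between acute and chronic, and -0.469 to 0.132 between healthy and chronic. A split of the libraries with the chronic numbers reversed was not tested, and the block on the number does not cover it. The few myofibroblasts of both chronic libraries and the few fibroblasts of chronic replicate 2 limit what could be detected there.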
